A study of Homo sapiens with 6 samples.

Results

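The genes described here are 8 components of caveolae and of the ferlin family, taken by name from a table of 79172 gene names: the caveolins CAV1 and CAV2, the cavins CAVIN1, CAVIN2 and CAVIN3, the ATPase EHD2, and the ferlins MYOF and DYSF. Their RNA was counted by RNA-seq in Huh7, a human line grown from a hepatocellular carcinoma. The samples were 3 libraries of cells overexpressing HK1, the gene of hexokinase 1, and 3 libraries of control cells, all of the same line. The study asked what overexpression of HK1 does to hepatocellular carcinoma cells. The labels used here state neither the vector for HK1 nor the treatment of the controls, nor whether the cells are 1 clone. The 8 genes were chosen by their counts in these libraries, with the difference between these same groups already known, so their differences are given as a description and without a p-value.

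Caveolae are small flask-shaped pits of the plasma membrane, rich in cholesterol, that buffer membrane tension and gather signalling proteins. Caveolins insert into the inner leaflet as oligomers, cavins form a coat around them, and EHD2 sits at the neck of the pit and holds it at the surface. Ferlins are membrane proteins with many calcium-binding C2 domains that act when vesicles fuse with a damaged plasma membrane, and they are best known from muscle.

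CAV1 and MYOF, which differed most between the groups, and CAV2, the neighbour of CAV1, are shown with CAVIN2, the only tested gene of the set that was not higher, by the sequence around a transcription start. Each window holds 250 bases before and 50 after a start that RefSeq lists (GRCh38.p14), read along the gene's strand. Capitals mark matches, on either strand, to the Sp1 motif GGGCGG and the TEAD motif GGAATG. The CAV1 window lies at chr7:116524759-116525058 on the plus strand, that of CAV2 at chr7:116499488-116499787 on the plus strand, that of MYOF at chr10:93482285-93482584 on the minus strand and that of CAVIN2 at chr2:191847039-191847338 on the minus strand.
CAV1: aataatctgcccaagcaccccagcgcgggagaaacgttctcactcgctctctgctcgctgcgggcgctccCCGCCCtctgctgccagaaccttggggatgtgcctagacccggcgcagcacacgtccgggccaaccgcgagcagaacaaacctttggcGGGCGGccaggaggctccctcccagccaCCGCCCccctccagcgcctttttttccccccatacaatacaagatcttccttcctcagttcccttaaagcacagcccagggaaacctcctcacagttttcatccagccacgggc
CAV2: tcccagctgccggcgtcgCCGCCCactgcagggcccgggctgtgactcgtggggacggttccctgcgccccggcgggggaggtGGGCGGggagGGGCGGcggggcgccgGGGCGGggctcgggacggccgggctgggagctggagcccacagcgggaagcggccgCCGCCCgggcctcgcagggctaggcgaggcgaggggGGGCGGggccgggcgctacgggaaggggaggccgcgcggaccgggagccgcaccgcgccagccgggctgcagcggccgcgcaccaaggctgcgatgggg
MYOF: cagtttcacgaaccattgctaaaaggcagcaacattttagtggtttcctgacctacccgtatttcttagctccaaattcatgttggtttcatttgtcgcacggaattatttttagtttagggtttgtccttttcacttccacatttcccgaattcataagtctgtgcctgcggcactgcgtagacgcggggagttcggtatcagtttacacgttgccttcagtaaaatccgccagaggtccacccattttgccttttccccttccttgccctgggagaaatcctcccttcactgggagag
CAVIN2: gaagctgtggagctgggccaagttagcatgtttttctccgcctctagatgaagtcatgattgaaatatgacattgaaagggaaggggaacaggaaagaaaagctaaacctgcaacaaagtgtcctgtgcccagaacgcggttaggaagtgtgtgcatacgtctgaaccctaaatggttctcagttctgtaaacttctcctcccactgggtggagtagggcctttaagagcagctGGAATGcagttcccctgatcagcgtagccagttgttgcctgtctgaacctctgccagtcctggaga

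The windows differed in base composition. G and C made up 82.7% of the CAV2 window and 62.3% of the CAV1 window, but 46.7% of the MYOF window and 49.3% of the CAVIN2 window, beside a median of 58.7% over 35116 RefSeq promoter windows. The Sp1 motif matched 6 times in the CAV2 window and 3 times in the CAV1 window, and 45.0% of all windows hold it at least once. Neither MYOF nor CAVIN2 had these letters in its window. The TEAD motif matched once among the 4 windows, in CAVIN2, and 14.0% of all windows hold it. The AP-1 motif TGANTCA and the CArG box were searched on both strands as well and are in none of the 4, while 7.71% and 1.29% of all windows hold them. RefSeq lists further starts for both caveolins. The second window of CAV1, at chr7:116524786-116525085, overlaps most of the one shown. It holds 61.7% G and C, and its 3 Sp1 matches are the same sites. The third of CAV1 holds 71.0% with 2 Sp1 matches, and the other 1 of CAV2 holds 71.0% with 4. RefSeq windows were found for 6 of the 8 genes, 9 windows in all. CAVIN1 and CAVIN3 had none.

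Library totals were 19607663 to 20823072 counts for HK1-overexpressing cells and 16771835 to 20071846 for control cells. HK1 itself had 9723, 10602 and 11101 counts in HK1-overexpressing libraries, against 13, 15 and 13 in control libraries. The libraries carried the liver markers ALB, AFP, APOA1, APOB, TTR, SERPINA1 and HNF4A in every sample. Of cell types in which caveolae are abundant, the endothelial markers CDH5, KDR and TEK, the muscle markers MYOD1 and MYOG and the adipocyte markers ADIPOQ and LEP had a count of 0 in every library. Other markers of such types were detected: PECAM1 (endothelial) at 4.03 to 6.20 CPM, CIDEC (adipocyte) at 2.59 to 4.13 CPM and COL1A2 (fibroblast) at 11.2 to 19.4 CPM over the 6 libraries. Levels are in CPM (counts scaled by library size and TMM factor), and a gene was tested if it passed edgeR's filterByExpr filter. No label describes the replicates as independent cultures, so p-values measure only the spread between these libraries, which may be technical.

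Of the 8 genes, 6 passed the filter, and 5 of those were called higher and 0 lower in HK1-overexpressing cells at an adjusted p below 0.05 in the fit across all genes. The background was 8.02% of 16734 tested genes called in either direction, and 3.87% called higher. The genes were chosen on this same difference, so their count is no evidence about the set. The number of genes called rested on the libraries: it was 1342 with all 6. Leaving out HK1-overexpressing replicate 1, 2 or 3 gave 554, 536 or 598, and leaving out control replicate 1, 2 or 3 gave 2257, 1818 or 809. The median log2 fold change (HK1-overexpressing over control) was 0.41 for the 6 genes and 0.01 for all tested genes. The 8 genes together took 0.0457%, 0.0461% and 0.0463% of the counts of HK1-overexpressing libraries, against 0.0310%, 0.0287% and 0.0288% of control libraries. In RNA of whole cultures, more cells that express a gene and more RNA per cell cannot be told apart.

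**Figure D1:**
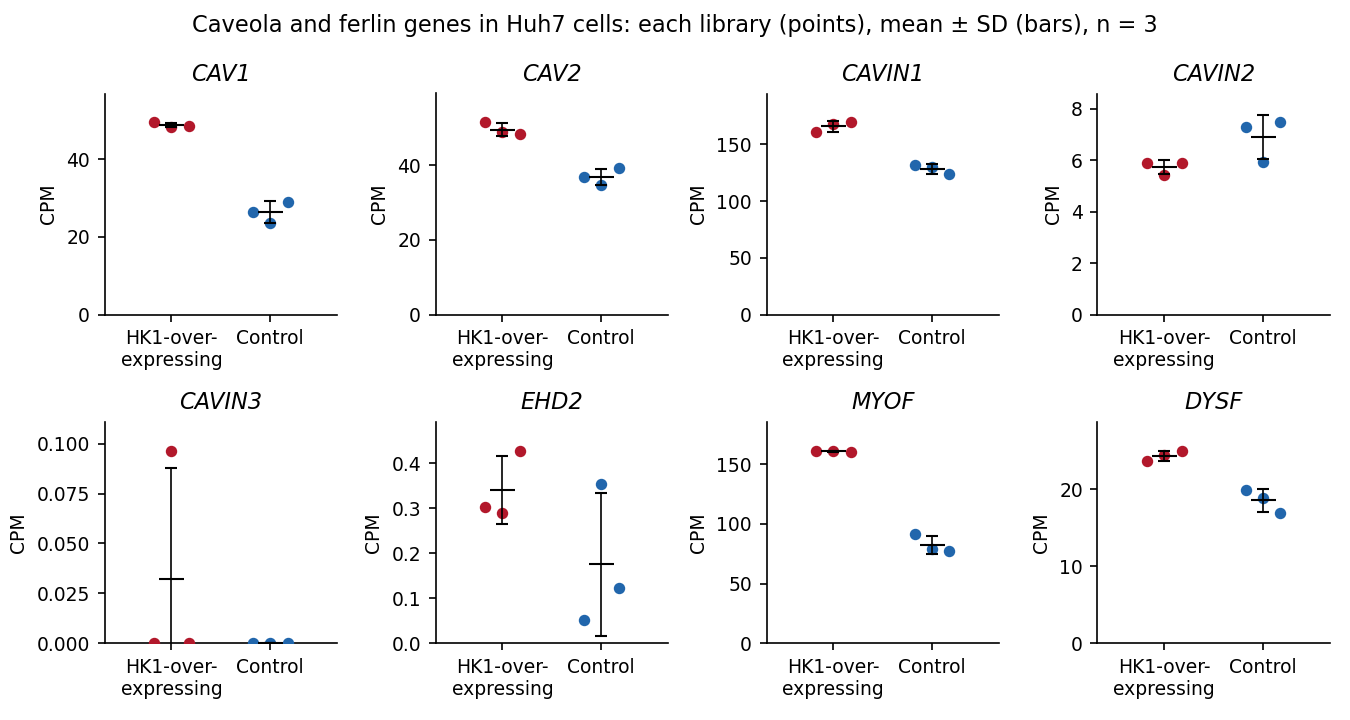
Level of each of the 8 genes in CPM (vertical axes, from 0, each with its own scale) in the 3 HK1-overexpressing and 3 control libraries; points are libraries and bars the mean ± SD. CAV1, CAV2, CAVIN1, MYOF and DYSF were higher in every HK1-overexpressing library than in any control library, CAVIN2 was lower, and CAVIN3 and EHD2 reached at most 0.427 CPM.

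Caveolin 1, the scaffold without which cells make no caveolae outside striated muscle, was at 49.4, 48.3 and 48.5 CPM in HK1-overexpressing libraries, against 26.5, 23.6 and 29.1 CPM in control libraries. The groups did not overlap, and the HK1-overexpressing libraries lay close together while the control libraries were more spread. The means were 48.7 ± 0.592 CPM in HK1-overexpressing cells and 26.4 ± 2.75 CPM in control cells (SD, n = 3 each), a log2 fold change of 0.89 (SE 0.0749). CAV1 lies on chromosome 7 from 116524994 to 116561179 (hg38, plus strand) and was counted over 3868 bases of exon.

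Caveolin 2, which joins caveolin 1 in its oligomers and needs it to reach the cell surface, was at 51.4, 48.7 and 48.4 CPM in HK1-overexpressing libraries, against 36.7, 34.7 and 39.1 CPM in control libraries. The groups did not overlap here either, but the gap between them was narrower than for CAV1. The mean was 49.5 ± 1.68 CPM in HK1-overexpressing cells and 36.8 ± 2.21 CPM in control cells (SD, n = 3 each), with a log2 fold change of 0.43 (SE 0.0656). CAV2 ends 16452 bases before CAV1 starts, on the same strand, and spans chromosome 7 from 116287380 to 116508541 in the annotation used. Its 6578 counted bases of exon include exons far upstream of the RefSeq start shown above. The ratio of CAV1 to CAV2, each per kilobase of counted exon, was 1.63, 1.69 and 1.70 in HK1-overexpressing libraries, against 1.23, 1.16 and 1.26 in control libraries. It was higher in every HK1-overexpressing library than in any control library.

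CAVIN1, the coat protein that caveola formation requires, had the highest level per kilobase of the set and was at 160.3, 167.5 and 169.2 CPM in HK1-overexpressing libraries, against 131.4, 129.6 and 123.5 CPM in control libraries. The groups did not overlap. Mean levels were 165.7 ± 4.70 CPM in HK1-overexpressing cells and 128.2 ± 4.15 CPM in control cells (SD, n = 3 each), a log2 fold change of 0.37 (SE 0.0507). Per kilobase, CAVIN1 exceeded CAV1 by 3.68 ± 0.147 times in HK1-overexpressing cells and by 5.31 ± 0.679 times in control cells (SD, n = 3 each), with no overlap between the groups. Its ratio to CAV2 did overlap, at 6.17 ± 0.377 in HK1-overexpressing cells and 6.43 ± 0.551 in control cells.

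CAVIN2, a cavin that helps to curve the membrane and is found in some tissues more than others, went the other way, at 5.91, 5.45 and 5.89 CPM in HK1-overexpressing libraries, against 7.30, 5.94 and 7.48 CPM in control libraries. The groups were separated only by a narrow gap, since control replicate 2 lay just above the highest HK1-overexpressing library. The means were 5.75 ± 0.260 CPM in HK1-overexpressing cells and 6.91 ± 0.845 CPM in control cells (SD, n = 3 each), a log2 fold change of -0.27 (SE 0.120), and CAVIN2 was not called. The 6 tested genes were all without overlap between groups, 5 higher and 1 lower, where 27.8% of tested genes did not overlap, 14.0% higher and 13.9% lower.

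CAVIN3, a further coat protein, had 0, 2 and 0 counts in HK1-overexpressing libraries, against 0, 0 and 0 in control libraries. It did not pass the filter, and no fold is given because both groups were at or under 3 counts. Of its 1557 bases of exon on chromosome 11, 59.3% are shared with an exon of ENSG00000282556, a gene without a symbol on the opposite strand, which had 0 counts in every library. The recorded counting used no strand and set no option for fragments that overlap 2 genes, so fragments in the shared bases would be missing from both. The low count therefore covers only fragments outside the shared bases, where almost none were counted. It is limited evidence on whether the gene is silent. The shared part of the exons was 17.6% for CAVIN1, 10.8% for CAVIN2 (with CAVIN2-AS1), 6.02% for DYSF and 0.424% for MYOF. CAV1, CAV2 and EHD2 shared none.

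EHD2, the ATPase of the caveola neck, was barely detected, with 6, 6 and 9 counts in HK1-overexpressing libraries, against 1, 6 and 2 in control libraries. The groups overlapped, and EHD2 did not pass the filter. The summed counts were 21 in HK1-overexpressing cells and 9 in control cells, a ratio of 2.02 per effective library size with an exact 95% interval of 0.886 to 5.01 that covers counting error only. A difference was not detectable at this depth. No exon base of EHD2 is shared with another gene of the table, unlike CAVIN3. Of its close relatives, which work mostly on endosomes, EHD3 was also scarce, with 4, 0 and 5 counts in HK1-overexpressing libraries, against 8, 6 and 5 in control libraries, and was not tested. EHD1 was at 132.0 ± 4.71 CPM in HK1-overexpressing cells and 118.6 ± 10.7 CPM in control cells, and EHD4 was at 89.2 ± 0.794 CPM in HK1-overexpressing cells and 94.7 ± 5.59 CPM in control cells (SD, n = 3 each), and neither was called (edgeR adjusted p = 0.173 and 0.402). Without control replicate 2, EHD1 was called higher (edgeR adjusted p = 0.0202).

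MYOF, myoferlin, which serves membrane repair and receptor recycling in several cell types, showed the largest difference of the set, at 161.2, 160.7 and 160.4 CPM in HK1-overexpressing libraries, against 91.2, 78.6 and 77.5 CPM in control libraries. The HK1-overexpressing libraries were almost equal, and control replicate 1 was the highest of the controls. The mean was 160.8 ± 0.405 CPM in HK1-overexpressing cells and 82.4 ± 7.60 CPM in control cells (SD, n = 3 each), with a log2 fold change of 0.96 (SE 0.0625). In the order of log2 fold changes from the highest, MYOF stood 146th and CAV1 188th of 16734 tested genes.

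DYSF, dysferlin, the ferlin whose loss causes a muscular dystrophy, was at 23.7, 24.4 and 25.0 CPM in HK1-overexpressing libraries, against 19.9, 18.8 and 16.9 CPM in control libraries. The groups did not overlap. Its means were 24.4 ± 0.649 CPM in HK1-overexpressing cells and 18.5 ± 1.51 CPM in control cells (SD, n = 3 each), a log2 fold change of 0.39 (SE 0.0789), and its call was lost without HK1-overexpressing replicate 3. Per kilobase, MYOF exceeded DYSF by 6.80 ± 0.199 times in HK1-overexpressing cells and by 4.58 ± 0.242 times in control cells, without overlap. The remaining ferlins were at the edge of detection: FER1L5 had 8, 9 and 9 counts in HK1-overexpressing libraries, against 5, 9 and 2 in control libraries, OTOF and FER1L6 had at most 2 in any library, and FER1L4, a pseudogene, had 0 in all 6. None of the 4 passed the filter.

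**Figure D2:**
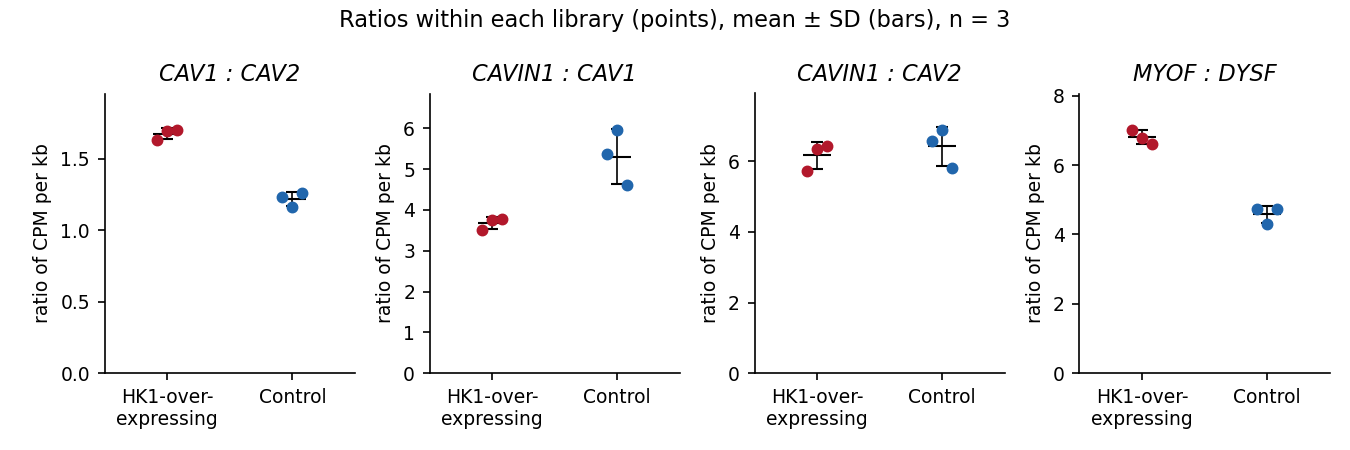
Ratios between genes within each library, from CPM per kilobase of counted exon (vertical axes, from 0); points are libraries and bars the mean ± SD of 3. CAV1 over CAV2 was 1.67 ± 0.0366 in HK1-overexpressing and 1.22 ± 0.0551 in control cells, CAVIN1 over CAV1 was lower in HK1-overexpressing cells, CAVIN1 over CAV2 overlapped between the groups, and MYOF over DYSF was higher in HK1-overexpressing cells.

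Set against each other by CPM per kilobase, the genes kept a similar order in both groups. In HK1-overexpressing cells the level was 46.4 ± 1.32 for CAVIN1, 18.9 ± 0.0476 for MYOF, 12.6 ± 0.153 for CAV1, 7.53 ± 0.255 for CAV2, 2.79 ± 0.0742 for DYSF, 1.88 ± 0.0851 for CAVIN2 and 0.0884 ± 0.0198 for EHD2 (SD, n = 3), and no neighbours in that order overlapped. In control cells it was 35.9 ± 1.16 for CAVIN1, 9.71 ± 0.895 for MYOF, 6.82 ± 0.711 for CAV1, 5.60 ± 0.337 for CAV2, 2.26 ± 0.277 for CAVIN2, 2.12 ± 0.173 for DYSF and 0.0455 ± 0.0411 for EHD2, where CAVIN2 and DYSF overlapped and the other neighbours did not. Among tested genes ranked by level per kilobase, CAVIN1 stood at percentile 94.4 in HK1-overexpressing cells and 92.1 in control cells, MYOF at 85.4 and 73.9, and CAV1 at 79.1 and 66.8, each time HK1-overexpressing cells before control cells. DYSF and CAVIN2 lay below the middle, at percentiles 48.6 and 41.5 in HK1-overexpressing cells and 44.2 and 45.3 in control cells. Lengths from the older GENCODE release 29 put CAV2 at 7.15 ± 0.243 CPM per kilobase in HK1-overexpressing cells. In control cells they put it at 5.32 ± 0.319, and the order changed for CAVIN2 (2.14 ± 0.262) and DYSF (2.21 ± 0.180). That release has the same upstream start for CAV2, with 6926 bases of exon, so it cannot show what the upstream exons do to its level per kilobase. In CPM, without length, CAV2 stood above CAV1 in control cells (36.8 ± 2.21 against 26.4 ± 2.75). In HK1-overexpressing cells CAV2 was at 49.5 ± 1.68 CPM and CAV1 at 48.7 ± 0.592 CPM.

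**Figure D3:**
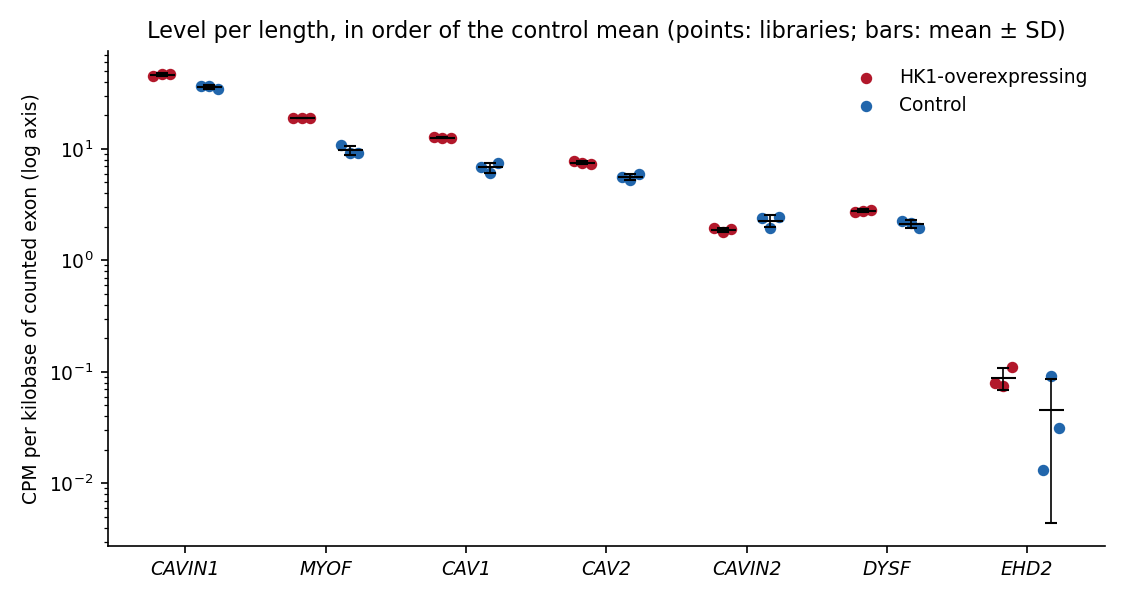
Level per length of the 7 genes above 0 in both groups, in CPM per kilobase of counted exon (vertical log axis), ordered by the control mean; points are libraries and bars the mean ± SD. CAVIN1 was highest and EHD2 lowest in both groups. The means of CAVIN2 and DYSF changed places between the groups, but their control libraries overlapped.

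Across the 6 libraries, the genes fell into different profiles. Likeness was measured as the root mean square difference of log2 CPM, each gene centred on its own mean, over 6 libraries, and it is a description of the same samples. CAVIN1 and DYSF were the most alike of the 15 pairs, at 0.0440, followed by CAV2 and CAVIN1 at 0.0936, while CAVIN2 and MYOF were the least alike at 0.621. Control replicate 3 was the highest control for CAV1, CAV2 and CAVIN2 and the lowest for CAVIN1, MYOF and DYSF. Among 10939 other genes with a mean of at least 5 CPM, the nearest to CAV1 were LRRN1 (0.0488) and APOL1 (0.0762), and the nearest to MYOF were PLCXD3 (0.0453) and IGFBP1 (0.0595). LRRN1 was at 24.5, 22.1 and 22.6 CPM in HK1-overexpressing libraries, against 12.2, 10.9 and 12.8 CPM in control libraries. The nearest to CAV2 were LIPA (0.0181) and ASAH1 (0.0271), to DYSF FOSL2 (0.0182) and CYTH3 (0.0307), to CAVIN2 CD302 (0.0277) and OPN3 (0.0394), and to CAVIN1 BTN3A1 (0.0261) and CAPN2 (0.0322).

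Of 16 other genes of caveolae, 13 were tested, and 0 were called higher and 1 lower. That is 7.69%, near the background of 8.02%, with a median log2 fold change of 0.01. At an unadjusted edgeR p below 0.05, 3 were higher and 3 lower. The share of all tested genes under that unadjusted threshold was not counted, so these counts have no background beside them. PACSIN3, an F-BAR protein that bends membranes at caveolae of muscle, fell to 27.4 ± 0.699 CPM in HK1-overexpressing cells, against 33.2 ± 2.71 CPM in control cells (SD, n = 3 each; log2 -0.28, SE 0.0735, edgeR adjusted p = 0.0327). That call was lost with library totals in place of TMM and without control replicate 2, and it was lost when any 1 HK1-overexpressing replicate was left out. PACSIN2, the widespread form that acts at caveolae of many cells, was at 131.8 ± 0.741 CPM in HK1-overexpressing cells and 129.4 ± 4.84 CPM in control cells (log2 0.03, edgeR adjusted p = 0.809). FLNA, the actin cross-linker filamin A that ties caveolae to the cytoskeleton, had the most counts of the list, at 1125 ± 55.1 CPM in HK1-overexpressing cells and 1115 ± 81.3 CPM in control cells (log2 0.01, edgeR adjusted p = 0.927). CAVIN4, known as a cavin of heart and skeletal muscle, was detected at 13.5, 12.9 and 12.6 CPM in HK1-overexpressing libraries, against 11.4, 10.5 and 11.8 CPM in control libraries and was not called (log2 0.21, edgeR adjusted p = 0.164). Per kilobase it stood above CAVIN2, at 4.20 ± 0.149 CPM in HK1-overexpressing cells and 3.62 ± 0.223 CPM in control cells. CAV3, the muscle caveolin, had at most 8 counts in any library and was not tested.

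Partners of membrane repair included 3 rises and 2 falls among 24 tested of 26, or 20.8% called, beside 8.02% of all tested genes. The median log2 fold change was 0.10, beside 0.01 for all tested genes. The count was 2 with a replicate block, 4 with library totals or DESeq2 and 7 with no filter. Leaving out HK1-overexpressing replicate 1, 2 or 3 gave 1, 2 or 2, and leaving out control replicate 1, 2 or 3 gave 7, 6 or 3. CAPN2, the catalytic subunit of a calcium-activated protease that cleaves dysferlin on wounding, rose to 477.5, 484.6 and 488.8 CPM in HK1-overexpressing libraries, against 378.6, 377.7 and 378.8 CPM in control libraries (log2 0.35, SE 0.0433, edgeR adjusted p = 0.000153). Its call held under all 12 alternatives. S100A11 and S100A10, small partners of annexins, rose by 0.42 and 0.24 on the log2 scale (SE 0.0804 and 0.0668, edgeR adjusted p = 0.00929 and 0.0423). S100A11 was at 271.4 ± 5.65 CPM in HK1-overexpressing cells and 203.0 ± 26.6 CPM in control cells, and its call was lost without HK1-overexpressing replicate 1 (edgeR adjusted p = 0.0535, the largest of its alternatives).

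BIN1, which forms membrane tubules, and SYT7, a calcium sensor of lysosome exocytosis, fell by 0.23 and 0.25 on the log2 scale (SE 0.0616 and 0.0690, edgeR adjusted p = 0.0337 and 0.0385). The calls of S100A10, BIN1 and SYT7 were each lost without any 1 HK1-overexpressing replicate, and also without control replicate 3 for S100A10 and BIN1 and without control replicate 2 for SYT7. Those of BIN1 and SYT7 were also lost with library totals in place of TMM, and that of SYT7 with DESeq2. With a replicate block all 3 were lost (edgeR adjusted p = 0.053 for S100A10, 0.056 for BIN1 and 0.066 for SYT7). None of the 7 annexin genes in the list was called in the main edgeR fit. ANXA5 came nearest (log2 0.16, edgeR adjusted p = 0.0773), and ANXA6 was the only annexin with a lower level (log2 -0.13, edgeR adjusted p = 0.179). Both were picked out after their values were seen. ANXA2, which binds S100A10 at the membrane, was at 318.6 ± 3.51 CPM in HK1-overexpressing cells and 294.4 ± 24.8 CPM in control cells (SD, n = 3 each; edgeR adjusted p = 0.273). AHNAK, a giant scaffold that binds dysferlin, was not called (log2 0.23, edgeR adjusted p = 0.156), but it was without control replicate 1 and without a filter.

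Of 12 receptors and signalling proteins reported to gather in caveolae, 0 were called in the main edgeR fit, beside 8.02% of all tested genes. DESeq2 called 1, BMPR2, and so did edgeR with library totals, no filter, a mean of at least 5 CPM or a replicate block. At an unadjusted edgeR p below 0.05, 1 was higher and 1 lower. How many of all tested genes lay there was not counted. SCARB1, a receptor for high-density lipoprotein, was at 322.1 ± 10.7 CPM in HK1-overexpressing cells and 346.4 ± 4.98 CPM in control cells (SD, n = 3 each; edgeR adjusted p = 0.201). BMPR2, a receptor for bone morphogenetic proteins that was picked out after its values were seen, was at 55.0 ± 1.71 CPM in HK1-overexpressing cells and 43.3 ± 7.03 CPM in control cells (log2 0.34, edgeR adjusted p = 0.0579), and control replicate 2 was the lowest library. Without control replicate 1, 3 of the 12 were called higher, and without control replicate 2, 1 was. Over all tested genes, 2257 of 17180 were called in either direction without control replicate 1. Leaving out control replicate 2 gave 1818 of 17170.

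The clathrin coat, its adaptor AP-2 and the flotillins, which serve other routes of uptake, gave 1 call among 13 tested, or 7.69%, near the background of 8.02%, with a median log2 fold change of 0.04. CLTB, a clathrin light chain, rose to 107.6 ± 2.06 CPM in HK1-overexpressing cells, against 93.7 ± 3.51 CPM in control cells (SD, n = 3 each; log2 0.20, SE 0.0527, edgeR adjusted p = 0.0316). The call was lost with a replicate block, when any 1 HK1-overexpressing replicate was left out and when control replicate 3 was. Leaving out control replicate 1 gave 2 calls. CLTC, the heavy chain, was at 622.2 ± 2.58 CPM in HK1-overexpressing cells and 601.3 ± 62.2 CPM in control cells (log2 0.05, edgeR adjusted p = 0.704). FLOT1 is annotated on 8 sequences and its counts are uncertain: it was at 11.3, 1.93 and 3.23 CPM in HK1-overexpressing libraries, against 4.23, 4.82 and 4.26 CPM in control libraries.

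**Figure D4:**
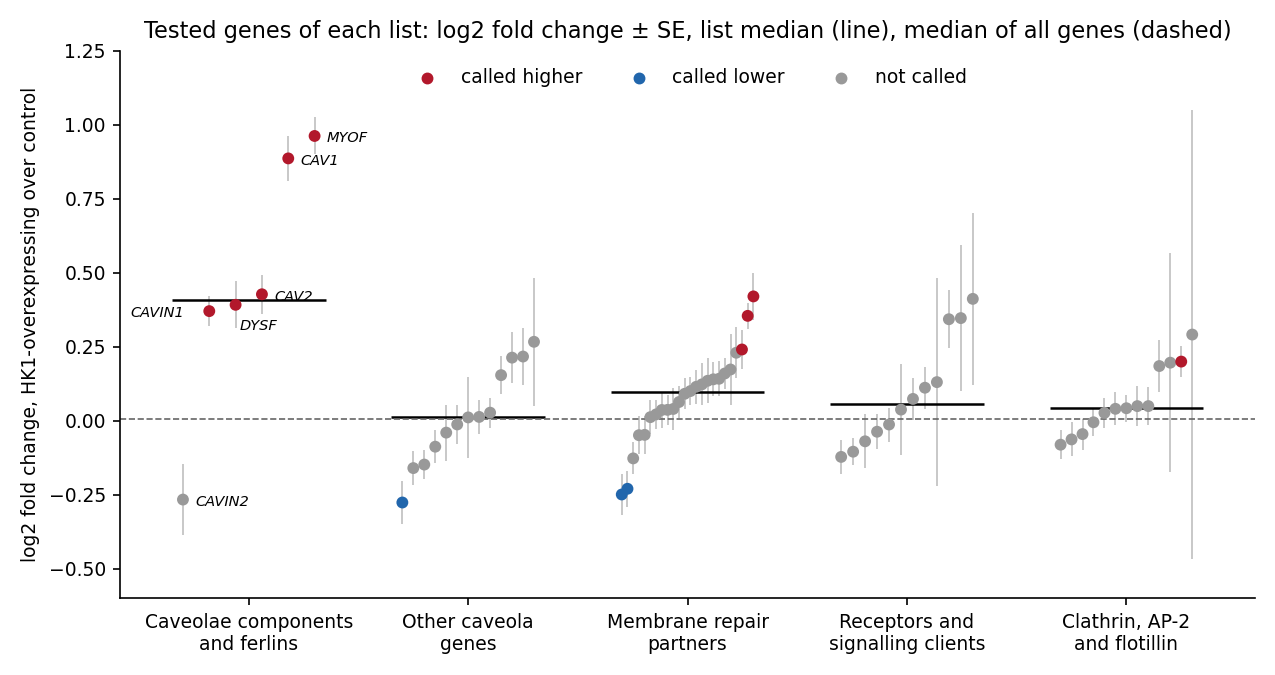
Log2 fold change, HK1-overexpressing over control (vertical axis), of the tested genes of each list, with the SE as a bar; the solid line is the list's median and the dashed line the median of all tested genes. The median is 0.41 for caveolae components and ferlins, which were chosen with this difference known, and between 0.01 and 0.10 for the other 4 lists.

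Summed markers of other cell types differed between the groups for some lists. The 6 markers of fibroblasts and smooth muscle summed to 19.4 to 22.7 CPM in HK1-overexpressing libraries and 14.9 to 16.1 CPM in control libraries, mostly COL1A2, a collagen chain and the only one of them called. The 4 adipocyte markers summed to 3.95 to 4.37 CPM in HK1-overexpressing libraries and 2.76 to 3.73 CPM in control libraries, and 2 of them were at 0 throughout. The 6 endothelial markers summed to 4.695 to 5.60 CPM in HK1-overexpressing libraries and 4.13 to 6.51 CPM in control libraries, with 3 at 0 throughout. The 6 skeletal muscle markers stayed below 1 CPM in sum in every library. The 5 leukocyte markers summed to 47.05 to 51.5 CPM in HK1-overexpressing libraries and 64.5 to 74.7 CPM in control libraries, mostly LYZ, while PTPRC and CD68 did not exceed 0.404 CPM. The 7 liver markers summed to 8451 to 8705 CPM in HK1-overexpressing libraries and 10740 to 11820 CPM in control libraries, and 4 of them were called lower. The part of these shifts in the differences of the caveola and ferlin genes was not tested.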

How the data were processed

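The deposited table held raw counts per gene name, made by the authors with featureCounts 1.5.3 in paired mode over exons of GENCODE release 47, per the file headers; Trim Galore, Subread and the build hg38 are named per the submitters' processing notes. All 6 deposited columns were whole numbers, so none held fractional estimated counts and rounding altered nothing. The recorded command set no option for strand or for fragments that overlap several genes. From these counts, TMM factors, CPM and log2 fold changes (HK1-overexpressing over control) were computed with edgeR 4.0.16 in R 4.3.3. Genes kept by filterByExpr (16734) entered edgeR's quasi-likelihood F-test (robust, a term for group alone) and were called at a Benjamini-Hochberg adjusted p below 0.05. The SE is the unshrunken coefficient over the square root of F and is approximate. Libraries held 16771835 to 20823072 counts, and intervals cover counting error only. Chi-square per degree of freedom between replicates was 1.51 to 9.94, above sampling noise, and none was merged. On simulated data for this comparison, with 50 genes seeded at each fold among 16446 tested, edgeR recovered 48% at 1.25-fold, 88% at 1.5-fold and 100% at 2-fold, with 17 false calls.

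The 8 genes, the other lists and the rule for naming genes were chosen with earlier results of these data known. Named were HK1, the 8 genes, the called genes of each list and its most abundant uncalled gene. So were the 2 nearest profiles of each of the 8 with a mean of at least 5 CPM. Relatives, muscle paralogs and marker genes are named as background beyond that rule, as are ANXA2, ANXA5, ANXA6, FLOT1 and BMPR2. Alternatives were RLE size factors, library totals, no filter, a mean of at least 5 CPM, DESeq2 1.42.0, a replicate block and leaving out each replicate.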

Additional observations from a re-analysis of the deposited data

How the results depend on the processing

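Of the 8 genes, 5 were called in 11 of 12 alternatives and 4 without HK1-overexpressing replicate 3, when DYSF was lost. Log2 fold changes ranged from 0.82 to 0.96 for CAV1, 0.39 to 0.47 for CAV2, 0.34 to 0.41 for CAVIN1, -0.36 to -0.21 for CAVIN2, 0.92 to 1.05 for MYOF and 0.33 to 0.45 for DYSF, and no direction turned. Without a filter, EHD2 and CAVIN3 were not called either. The count over all genes ranged from 536 to 2257 when 1 replicate was left out; with library totals only, 66.3% of called genes were higher. Same-numbered replicates did not deviate together (correlations 0.00707, 0.0579 and -0.0304), so the numbers are not taken as pairs; with a replicate block 1074 genes were called. Under the replicate block membrane repair partners gave 2 calls, clathrin and flotillin genes 0, and signalling clients 1. Signalling clients also gave 1 call with library totals only, 1 with no filter, 1 with a mean of at least 5 CPM and 1 with DESeq2; BMPR2 was that gene in all 5. Other caveola genes gave 0 calls with library totals only. Leaving out 1 replicate gave 0 to 1 calls for other caveola genes, 1 to 7 for membrane repair partners, 0 to 3 for signalling clients and 0 to 2 for clathrin and flotillin genes. Among genes not called, FLNA turned to -0.0211 without HK1-overexpressing replicate 3 and -0.0469 without control replicate 3, within a range of -0.0469 to 0.0548, and CLTC to -0.0173 without control replicate 2, within a range of -0.0173 to 0.133. The causes were not tested. Counts were too low to test EHD2, CAVIN3 and the 4 remaining ferlins.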
